A study of Rattus norvegicus with 9 samples.

Results

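The opioid peptide and receptor genes of the rat spinal cord were followed in an RNA sequencing experiment on nerve injury and its treatment. The genes were chosen by name, with earlier results of these data known. They comprised 3 peptide precursors (Penk, Pdyn and Pnoc) and 4 receptors (Oprm1, Oprd1, Oprk1 and Oprl1). All 7 were found, each as a single locus, among the 34890 loci of the expression table. The samples were the ipsilateral lumbar spinal cord of male wild-type Sprague Dawley rats, 3 per group. JA rats had a sham operation and were given saline. SNI rats had spared nerve injury, in which branches of the sciatic nerve are cut and another is left intact, and were given saline. PLM rats had the same injury and were given the middle dose of the plant compounds paeoniflorin (20.65 mg/ml) and liquiritin by gavage. The sample labels give the liquiritin concentration as 3.98, 3.99 and 3.100 mg/ml in PLM replicates 1, 2 and 3, and the text of the study gives 3.98 mg/ml for the group. No rats given a single compound and no sham-operated rats given the compounds were analysed here, so the comparison of PLM with SNI concerns the combination in injured rats.

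Opioid peptides are cut from larger precursors. Penk encodes proenkephalin, the source of the enkephalins, Pdyn encodes prodynorphin, the source of the dynorphins, and Pnoc encodes prepronociceptin, the source of nociceptin. Oprm1, Oprd1 and Oprk1 encode the mu, delta and kappa opioid receptors, and Oprl1 encodes the nociceptin receptor. All 4 receptors couple to inhibitory G proteins, which lower cyclic AMP, open potassium channels and close calcium channels. In the dorsal horn they dampen transmission from pain fibres, and the mu receptor is the main target of morphine.

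Values are TPM, an expression unit corrected for transcript length that sums to the same total in every library. TPM keeps no read depth, so the counting error of a value is unknown. Differences are log2 fold changes on log2(TPM + 1), a scale on which changes at low TPM come out smaller than they are. They were tested with limma across all loci averaging 1 TPM or more in the samples compared, and a gene was called at a Benjamini-Hochberg adjusted p under 0.05. Because the median locus moved by 0.12 from JA to SNI and by -0.21 from SNI to PLM, each comparison was also made after every sample was centred on its median (median-centred values).

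The whole tissue was sequenced, so fewer cells of a type and less RNA per cell cannot be told apart. The libraries differed in their make-up. The mitochondrial protein genes took between 23.7% and 32.8% of all TPM. All 10 astrocyte markers were called lower from SNI to PLM (median log2 fold change -1.35), with a summed level of 3071 to 3404 TPM in SNI and 1497 to 1811 TPM in PLM. The summed Schwann cell markers, which mark nerve roots, ran from 65.6 to 6346 TPM within JA alone. The 10 general neuron markers summed to 2727 to 4680 TPM in JA, 4198 to 5396 TPM in SNI and 4013 to 4551 TPM in PLM, and none of them was called in any comparison. Motor neuron markers summed to 184 to 428 TPM in JA, 437 to 582 TPM in SNI and 356 to 417 TPM in PLM, and from SNI to PLM 3 of 7 were called lower. Of the oligodendrocyte markers 0 of 8, of the microglia markers 1 of 8 and of the meninges and fibroblast markers 1 of 6 were called lower there. The summed markers of excitatory dorsal horn neurons (694 to 897 TPM) and of inhibitory neurons (474 to 623 TPM) varied less over the samples than those of motor neurons or Schwann cells, and 1 of 13 and 1 of 10 of them were called lower from SNI to PLM. Of all loci, 13.9% were called in that comparison, and 0.814% on median-centred values. On median-centred values 8 of 10 astrocyte markers were called lower there. None of the motor neuron, oligodendrocyte, microglia, meninges and fibroblast, excitatory or inhibitory neuron markers was. Among 8 markers of sensory ganglion neurons, whose cells also carry opioid receptors, 6 were below a mean of 1 TPM (Scn10a, Scn11a, Trpv1, P2rx3, Mrgprd and Avil), and Mrgprd was at 0 in all samples. The whole list summed to 16.2 to 92.6 TPM in JA, 49.7 to 90.4 TPM in SNI and 33.0 to 65.6 TPM in PLM. The part of these differences in the results on opioid genes was not tested, except where a value is given beside a result.

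None of the 7 genes was called between any of the groups. Of the 6 that passed the filter on low values in SNI versus JA, 0 were called, where 0% of all 15557 loci were. In PLM versus SNI 0 of 6 were called, where 13.9% of 15474 loci were, and in PLM versus JA 0 of 5, where 0.0195% of 15349 loci were. On median-centred values the counts were again 0 of 6, 0 of 6 and 0 of 5, against 0%, 0.814% and 0.0130% of all loci. A test over all 3 groups called 0 of 6, against 0.0194% of loci as deposited and 0% median-centred. At an unadjusted p under 0.05 with limma, 0 of 6 genes passed in SNI versus JA (7.10% of loci), 1 of 6 in PLM versus SNI (Oprk1, which passed the filter only through its SNI values, with 37.1% of loci) and 0 of 5 in PLM versus JA (11.8% of loci). The median-centred counts were 0 of 6 (4.83% of loci), 1 of 6 (Penk, with 16.9% of loci) and 0 of 5 (9.98% of loci). The thresholds of the study, an unadjusted p under 0.05 with an absolute log2 fold change above 1, were passed by none of the genes in any of the 3 comparisons, and by 0.688%, 1.65% and 0.938% of loci. With 3 rats per group, a gene that was not called is not shown to be equal between groups, and the intervals below give the sizes of change that these data allow.

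**Figure D1:**
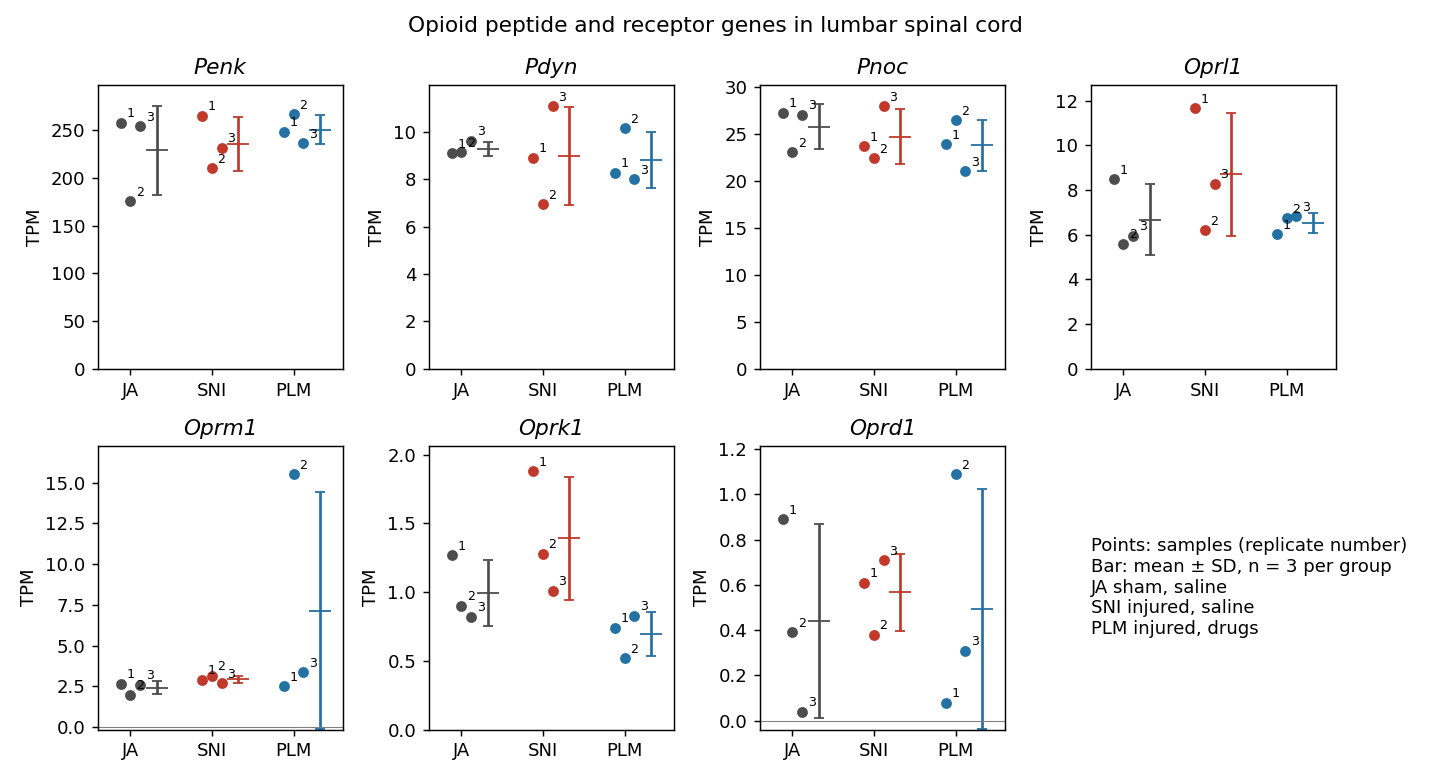
TPM of each opioid gene in each sample, with 1 panel per gene and its own linear axis. Points are samples with their replicate number, and bars are mean ± SD of 3 samples. The PLM point for Oprm1 at 15.51 TPM stands far above the other 8 samples, and the 3 PLM points for Oprk1 lie below all SNI points.

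Penk (ENSRNOG00000008943) was by far the most abundant of the 7 genes, and its level differed little between groups. It was listed at 257.74, 175.39 and 253.97 TPM in the JA samples, at 265.04, 209.88 and 231.57 TPM in SNI, and at 248.18, 266.65 and 236.25 TPM in PLM. The lowest value was that of JA replicate 2, and the groups overlapped. Its mean over the 9 samples ranked 483 of 15503 loci, within the top 3.12%. Group means (± SD, n = 3 each) were 229 ± 46.5 TPM for JA, 235 ± 27.8 TPM for SNI and 250.4 ± 15.3 TPM for PLM.

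Penk had a log2 fold change of 0.06 in SNI versus JA (95% interval -0.35 to 0.46, adjusted p = 0.902, limma) and 0.09 in PLM versus SNI (95% interval -0.14 to 0.33, adjusted p = 0.499, limma). The upper bound of the second interval is a rise of 1.25-fold and its lower bound a level of 0.907 times that in SNI. Relative to the median locus, Penk was higher in PLM. On median-centred log2 values the PLM samples stood at 8.15, 8.18 and 7.96 and the SNI samples at 7.90, 7.60 and 7.76, so the groups did not overlap. The median-centred difference was 0.34 (standard error 0.10, unadjusted p = 0.0132, adjusted p = 0.177, limma), which was not called. Penk and Oprm1 were the 2 of 6 genes whose groups did not overlap there, against 24.0% of all loci. Centred on the neuron markers in place of the median locus, the difference was 0.27 (adjusted p = 0.239, limma).

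Pnoc (ENSRNOG00000014231) was the next most abundant. Its levels were 27.22, 23.01 and 27.00 TPM in JA, 23.69, 22.37 and 27.93 TPM in SNI, and 23.85, 26.41 and 21.01 TPM in PLM. All 3 groups overlapped. Pnoc had a log2 fold change of -0.06 in SNI versus JA (95% interval -0.34 to 0.22) and -0.05 in PLM versus SNI (95% interval -0.33 to 0.23). Relative to the neuron markers Pnoc was lower in SNI than in JA by 0.45 on the log2 scale, with an unadjusted p of 0.0333 and an adjusted p of 0.499 in limma. On that scale the median of all loci was itself -0.27, and 1112 of 15557 loci had an unadjusted p under 0.05.

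Pdyn (ENSRNOG00000026036) was listed at 9.09, 9.15 and 9.63 TPM in JA, at 8.91, 6.94 and 11.09 TPM in SNI, and at 8.28, 10.16 and 8.01 TPM in PLM. The JA samples lay close together, and the SNI samples reached both above and below them. Group means (± SD, n = 3 each) were 9.29 ± 0.296 TPM for JA, 8.98 ± 2.08 TPM for SNI and 8.82 ± 1.17 TPM for PLM. Pdyn had a log2 fold change of -0.06 in SNI versus JA (95% interval -0.45 to 0.32) and -0.01 in PLM versus SNI (95% interval -0.42 to 0.40). A rise or fall of Pdyn after injury as large as the bounds of 0.734-fold and 1.25-fold is therefore within what these samples allow. In RefSeq a long noncoding RNA, LOC120101661, overlaps Pdyn, and reads of the overlap could be counted for either.

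The make-up of the peptide transcripts was much alike in all samples. Penk made up between 84.5% and 89.1% of the summed TPM of the 3 precursors. Its share averaged 86.5% ± 1.75 for JA, 87.5% ± 1.75 for SNI and 88.5% ± 0.561 for PLM (± SD, n = 3 each), and the PLM shares lay above all JA shares. The share of Pnoc was lower in PLM (8.38% ± 0.410) than in JA (9.88% ± 1.05), again without overlap, while neither share separated PLM from SNI. The shares are parts of the same sum, so these separations are not independent of each other. In TPM both genes overlapped between PLM and JA, where 17.7% of all loci did not overlap. No such rate was computed for shares. The ratio of Penk to Pdyn ran from 19.2 to 30.2 with a median of 28.4, and the ratio of Pnoc to Pdyn from 2.51 to 3.22. Pdyn and Pnoc varied together over the 9 samples (Pearson's r = 0.79, and 0.87 on median-centred values), whereas Penk and Pdyn did so less (r = 0.25 and 0.51, or 0.15 and 0.38 without PLM replicate 2). These correlations describe samples that share the same scaling in each library and carry no test.

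**Figure D2:**
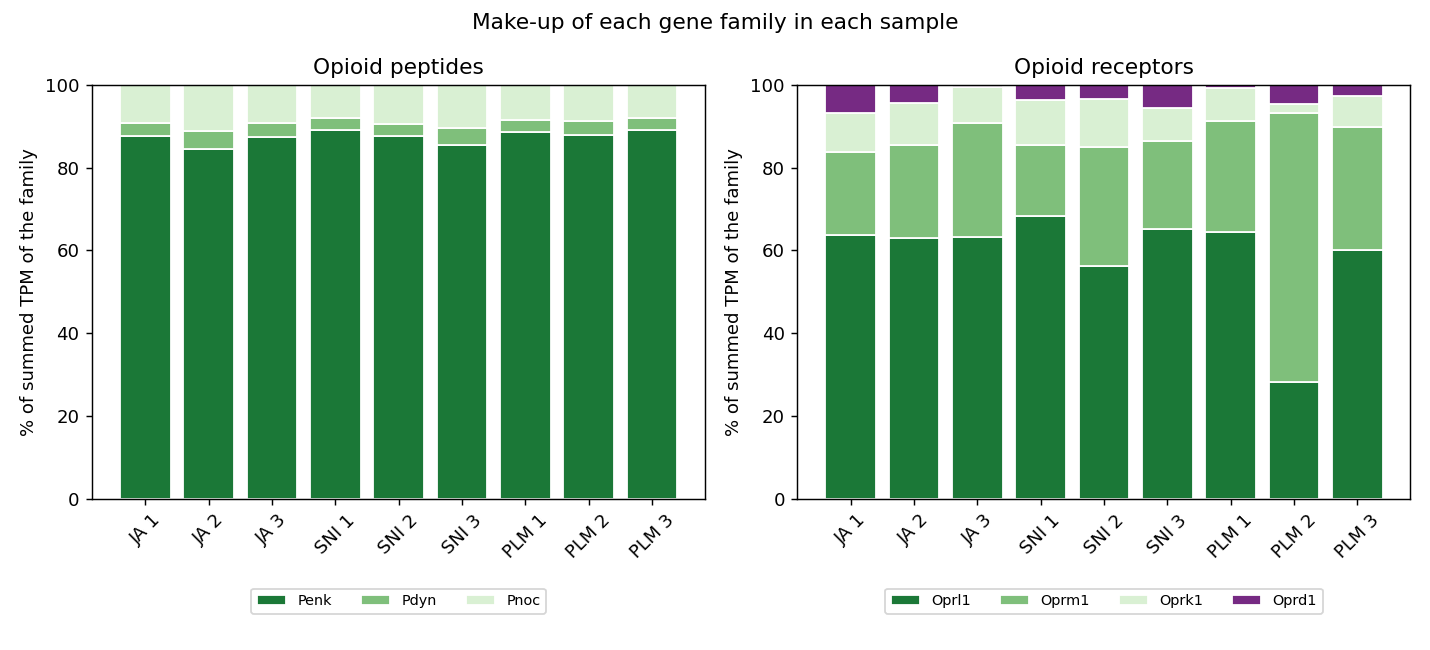
Share of the summed TPM of the 3 peptide precursors (left) and of the 4 receptors (right) taken by each gene in each of the 9 samples, in percent. Penk takes between 84.5% and 89.1% everywhere, and Oprl1 takes the largest receptor share in every sample except PLM replicate 2, where Oprm1 takes 65.0%.

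The receptor genes were much less abundant than the precursors. The summed TPM of the 4 receptors was between 8.86 and 23.9, and that of the 3 precursors between 207.6 and 303.2. Ordered by their mean over the 9 samples the 7 genes were Penk, Pnoc, Pdyn, Oprl1, Oprm1, Oprk1 and Oprd1. The ranges of Penk and Pnoc, of Pnoc and Pdyn, and of Oprm1 and Oprk1 did not overlap. Pdyn was above Oprl1 in 8 of 9 samples, Oprl1 above Oprm1 in 8 of 9 and Oprk1 above Oprd1 in 8 of 9, with overlapping ranges in each case. The exceptions were SNI replicate 1 for the first of these pairs and PLM replicate 2 for the other two.

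Oprl1 (ENSRNOG00000016768), the nociceptin receptor gene, was the leading receptor transcript. It was listed at 8.49, 5.59 and 5.95 TPM in JA, at 11.65, 6.20 and 8.28 TPM in SNI, and at 6.02, 6.73 and 6.82 TPM in PLM. The highest value was that of SNI replicate 1, and the groups overlapped. Its log2 fold change was 0.32 in SNI versus JA (95% interval -0.25 to 0.89, adjusted p = 0.644, limma) and -0.33 in PLM versus SNI (95% interval -0.81 to 0.15, adjusted p = 0.264, limma). After centring, the second difference was -0.08. Both differences rested much on single SNI samples. Without SNI replicate 1 they were 0.11 and -0.12, and without SNI replicate 2 they were 0.52 and -0.53, and neither was called. Oprl1 took between 56.3% and 68.3% of the receptor TPM in the 8 samples other than PLM replicate 2, where it took 28.2%.

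Oprm1 (ENSRNOG00000018191), the mu receptor gene, had 1 extreme value. Its levels were 2.67, 1.98 and 2.60 TPM in JA, 2.91, 3.15 and 2.70 TPM in SNI, and 2.49, 15.51 and 3.38 TPM in PLM. PLM replicate 2 stood 4.59-fold above the next highest sample, while the other 2 PLM samples lay on either side of the SNI range. The PLM mean was therefore 7.13 ± 7.27 TPM, against 2.92 ± 0.225 TPM for SNI and 2.42 ± 0.380 TPM for JA (± SD, n = 3 each). From SNI to PLM the log2 fold change was 0.69 (standard error 0.56, 95% interval -0.65 to 2.03, adjusted p = 0.387, limma), and without PLM replicate 2 it was -0.0022 (adjusted p = 0.992, limma). In PLM versus JA it was 0.89 (adjusted p = 0.572, limma), and 0.20 without that sample (adjusted p = 0.849, limma).

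The same library held other outlying values. Of 15503 loci, 22 exceeded their next highest sample by more in PLM replicate 2 than Oprm1 did, by the ratio of TPM + 1. Oprm1 stood 1.91 above its next sample on the log2 scale of that ratio. Of those 22 loci, 20 were at 0 in all other samples. PLM replicate 2 had 20 loci above 0 in no other sample, against 6 to 12 in each of the other libraries, and 7 of its 20 were named U6. By the ratio of TPM + 1 it had 23 loci at over 3-fold the next highest sample, against 29 in SNI replicate 1 and 11 to 20 in the other libraries. Ipcef1, which overlaps Oprm1 in RefSeq, was also at its highest there, at 0.96 TPM against 0.29 to 0.65 TPM in the other 8 samples. A long noncoding RNA, LOC134484992, and a pseudogene, Yes1-ps1, overlap Oprm1 as well. The part of these overlaps in the high value was not tested.

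In SNI versus JA, Oprm1 was the 1 gene of 6 whose groups did not overlap, with every SNI sample above every JA sample, and 13.8% of all loci were without overlap there. Its log2 fold change there was 0.20 (95% interval -0.14 to 0.55, unadjusted p = 0.204, adjusted p = 0.634, limma). After centring, the difference was 0.08 and 0 of 6 genes were without overlap, where 10.8% of loci were. Relative to the neuron markers, which had a median log2 fold change of 0.30 between the same groups, Oprm1 was at -0.19 in SNI versus JA, where the median of all loci was at -0.27. In PLM versus JA 0 of 5 genes had groups without overlap (17.7% of loci), and Oprm1 was the 1 of 5 on median-centred values (16.4% of loci).

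Oprk1 (ENSRNOG00000007647), the kappa receptor gene, was lower in each PLM sample than in any SNI sample. It was listed at 1.27, 0.90 and 0.82 TPM in JA, at 1.88, 1.28 and 1.01 TPM in SNI, and at 0.74, 0.52 and 0.83 TPM in PLM. The group means were 0.997 ± 0.240, 1.39 ± 0.445 and 0.697 ± 0.159 TPM (SD, n = 3 each). The PLM and SNI samples did not overlap, as for 43.5% of all loci in that comparison, and Oprk1 was the 1 gene of 6 of which this was true. The log2 fold change was -0.48 (standard error 0.20, 95% interval -0.96 to -0.0038, unadjusted p = 0.0487, adjusted p = 0.133, limma), which was not called. Oprk1 passed the filter in this comparison through the higher SNI values and fell below it without SNI replicate 1 or without SNI replicate 2, so the gene was admitted by the same difference that was tested. After centring it was -0.24 (adjusted p = 0.583, limma), and the groups overlapped. With a pseudocount of 0.1 the log2 fold change was -0.88 (adjusted p = 0.137, limma).

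In SNI versus JA the log2 fold change of Oprk1 was 0.25 (95% interval -0.25 to 0.75, adjusted p = 0.661, limma), and here too the gene passed the filter through its SNI values. In PLM versus JA Oprk1 was below the filter, and its log2 fold change in a fit of all loci above 0 was -0.23 (95% interval -0.54 to 0.08). Of the receptor TPM Oprk1 took 9.47% ± 0.724 for JA, 10.2% ± 1.97 for SNI and 5.81% ± 3.16 for PLM (± SD, n = 3 each). The 3 PLM shares, at 7.93%, 2.18% and 7.32%, lay below all 6 others. The lowest of them was that of PLM replicate 2, where Oprm1 raised the total, and the highest stood close to the lowest SNI share of 7.95%. In TPM, 43.5% of all loci were without overlap in PLM versus SNI and 17.7% in PLM versus JA. No such rate was computed for shares within a family.

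Oprd1 (ENSRNOG00000010531), the delta receptor gene, was near the lower limit of the table. It was listed at 0.89, 0.39 and 0.04 TPM in JA, at 0.61, 0.38 and 0.71 TPM in SNI, and at 0.08, 1.09 and 0.31 TPM in PLM. Within JA and within PLM the values spread over more than the whole SNI range. Oprd1 did not pass the filter in any comparison. In a fit of all loci above 0 its log2 fold change was 0.16 in SNI versus JA (95% interval -0.39 to 0.70) and -0.12 in PLM versus SNI (95% interval -0.73 to 0.49).

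From SNI to PLM the 6 genes that passed the filter had a median of -0.03 on the log2 scale, where all loci tested had -0.21, and 4 of the 6 were below 0. On median-centred values the medians were 0.22 and 0.04, with 4 of 6 above 0. The 3 precursors were above 0 on median-centred values, at 0.34 for Penk, 0.24 for Pdyn and 0.20 for Pnoc, and so was Oprm1, at 0.94 with PLM replicate 2 included, while Oprk1 and Oprl1 were at -0.24 and -0.08. The marker lists had medians on this scale of 0.25 for microglia (7 of 8 above 0), 0.20 for oligodendrocytes (8 of 8), 0.19 for excitatory dorsal horn neurons (10 of 13), 0.07 for neurons (7 of 10) and -0.03 for inhibitory neurons (5 of 10). The sensory ganglion (-0.07), motor neuron (-0.24), meninges and fibroblast (-0.32), Schwann cell (-0.42) and astrocyte (-1.11) lists were lower. From JA to SNI the medians were 0.13 for the 6 genes and 0.12 for all loci. These medians are descriptions of a few genes, and the difference from all loci was not tested.

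**Figure D3:**
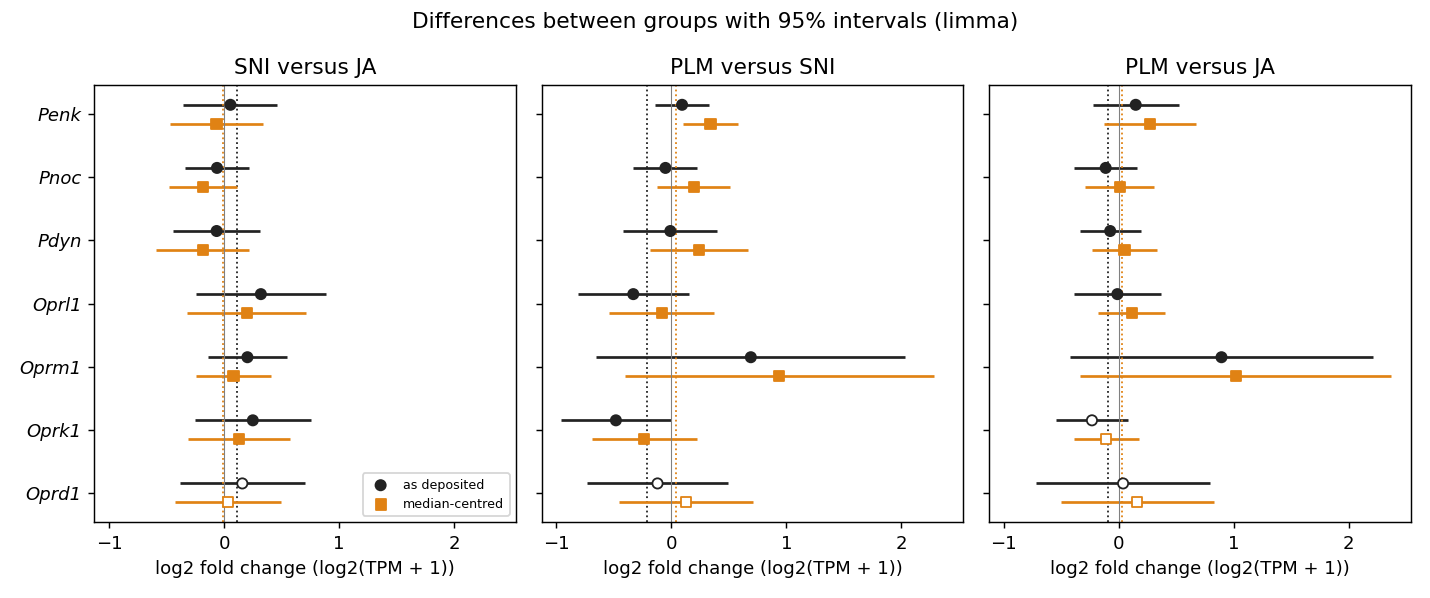
Log2 fold change of each opioid gene with its 95% interval from limma in the 3 comparisons, as deposited (circles) and median-centred (squares); dotted lines mark the median of all loci on each scale and open symbols mark genes below the filter. The interval of Penk in PLM versus SNI lies above 0 only on median-centred values, that of Oprk1 there lies below 0, with its upper bound just under 0, only as deposited, and the widest intervals in both comparisons with PLM are those of Oprm1.

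The other genes of the opioid system were described by 6 lists with 75 genes in all. Between JA and SNI 0 of 68 genes tested were called, as were 0% of all loci, and between JA and PLM 0 of 67, where 0.0195% of loci were. In PLM versus SNI 13 of 68 (19.1%) were called lower and 0 higher, against 13.9% of all loci called in either direction. The median of the 68 genes was -0.28, beside the -0.21 of all loci. On median-centred values 1 of 68 genes (1.47%, against 0.814% of all loci) was called, Rgs4, which was higher in PLM, and the median was -0.03. The count of 13 also fell to 2, Cpe and Scg3, without SNI replicate 1, without PLM replicate 1 or without PLM replicate 2, to 3 without SNI replicate 3 and to 6 without PLM replicate 3. The loci called over the whole table fell as well, from 2148 of 15474 to 293, 315, 275, 607 and 700 in the same order.

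By list, the shares called lower are to be read beside the 13.9% of all loci called. The counts below 0 are to be read beside the median of all loci, which was -0.21 as deposited and 0.04 median-centred. Among genes for the processing of precursors, 12 of 13 were below 0 as deposited and 9 of 13 median-centred, and 2 were called lower in PLM as deposited. Pcsk1, at a mean of 1.75 TPM in SNI and 0.713 TPM in PLM, passed the filter through its SNI values. Scg3, a granin family protein of secretory granules, was at 160.92, 157.09 and 139.80 TPM in SNI and at 89.85, 95.60 and 82.37 TPM in PLM, which is a difference of -0.77 on the log2 scale (standard error 0.08, adjusted p = 0.00751, limma). Cpe, the carboxypeptidase that trims the cut peptides, went from 569 ± 30.0 TPM to 393 ± 9.78 TPM (SD, n = 3 each), which is -0.53 on the log2 scale (adjusted p = 0.00759, limma). Both were called without each of the 6 samples in turn. After centring, Scg3 was at -0.52 (adjusted p = 0.0721, limma) and Cpe at -0.29 (adjusted p = 0.133, limma). Both genes were high in JA replicate 1, at 133.78 and 542.34 TPM, and lower in the other JA samples.

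Among peptidases that break down opioid peptides, all 11 tested were below 0 as deposited and 3 were called lower, of which Thop1, a cytosolic oligopeptidase, fell by 0.31 (adjusted p = 0.0326, limma) and Ece1, an endothelin-converting enzyme, by 0.50 (adjusted p = 0.0421, limma) on the log2 scale. Of the G protein genes 10 of 11 were below 0 as deposited and 8 of 11 median-centred, and 3 were called lower as deposited. Gnai2 and Gnao1, alpha subunits of the inhibitory G proteins, had log2 fold changes of -0.41 (adjusted p = 0.0176, limma) and -0.42 (adjusted p = 0.0280, limma). After centring both were at -0.17. Of the receptor desensitization genes 11 of 14 were below 0 as deposited and 7 of 14 median-centred. As deposited, 2 were called lower, the arrestin Arrb1 (log2 fold change -0.50, adjusted p = 0.0380, limma) and the receptor kinase Grk5 (-0.37, adjusted p = 0.0415, limma). After centring they were at -0.25 and -0.12. Of the effectors all 14 tested were below 0 as deposited and 9 of 14 median-centred. As deposited, 3 were called lower, among them the adenylyl cyclase Adcy8 (log2 fold change -0.45, adjusted p = 0.0418, limma, and -0.20 after centring).

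None of these genes was called on median-centred values. Astrocytes can also express genes of these lists, which was not measured here. The astrocyte markers were lower in PLM as given above, and the part of that difference in these values was not tested. Rgs4, which speeds the switching off of inhibitory G proteins, was listed at 18.11, 16.82 and 16.72 TPM in SNI and at 17.98, 19.80 and 20.51 TPM in PLM. Its median-centred log2 fold change was 0.41 (standard error 0.06, adjusted p = 0.0440, limma), while as deposited it was 0.16 (adjusted p = 0.165, limma) and the groups overlapped.

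Of the other opioid peptide and related genes, 5 of 9 were tested and 0 called. Pomc, the precursor of beta-endorphin, was present at 3.52 to 6.20 TPM, below Pdyn in all 9 samples. Npff, which encodes a peptide that modulates opioid action, was listed at 13.11, 21.08 and 14.66 TPM in JA, at 13.52, 8.35 and 11.33 TPM in SNI, and at 16.12, 13.66 and 13.58 TPM in PLM. Its 3 PLM samples lay above all SNI samples, and it was not called. In that comparison 43.5% of all loci were without overlap in either direction, and 2110 of the 2148 loci called were lower in PLM. The share of loci lying higher without overlap was not computed. The receptors of that peptide, Npffr1 and Npffr2, were at most 0.31 and 0.26 TPM.

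**Figure D4:**
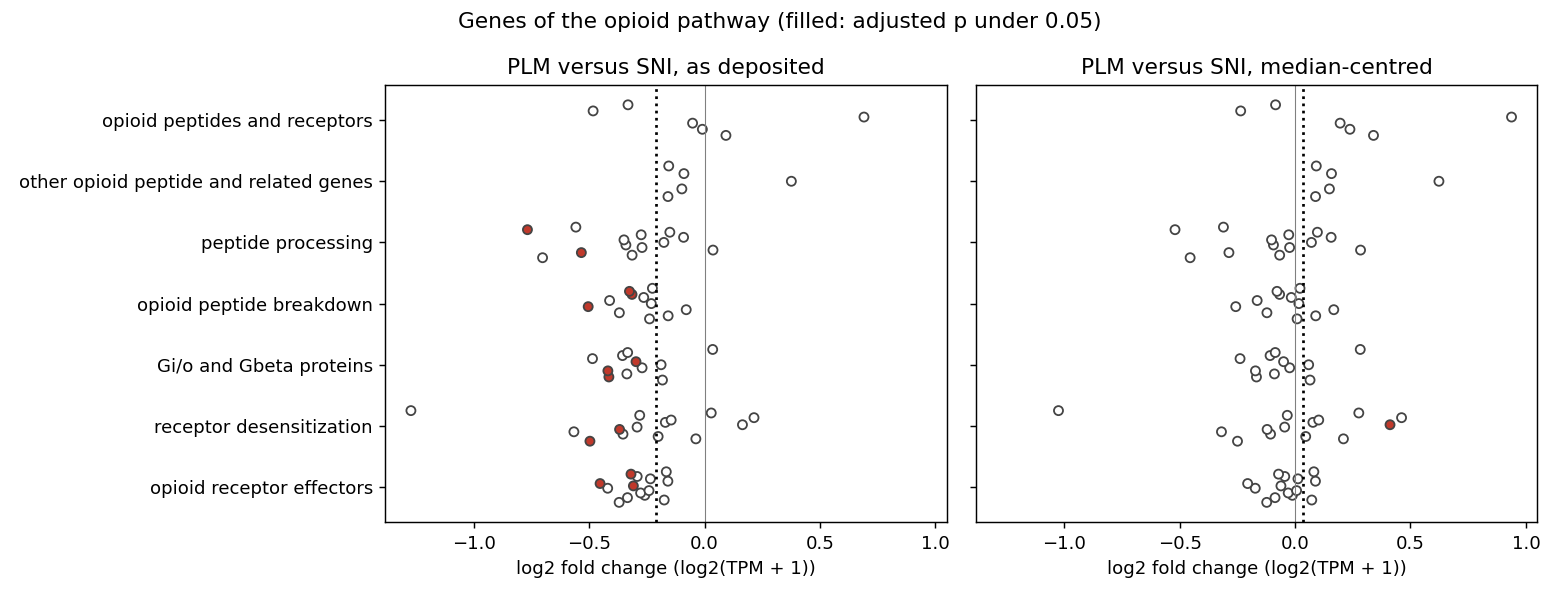
Log2 fold changes in PLM versus SNI of the opioid peptide and receptor genes and of the 6 lists of pathway genes, as deposited (left) and median-centred (right). Each point is a gene that passed the filter, filled where the adjusted p was under 0.05, and the dotted line is the median of all loci. The 13 filled points on the left lie below 0, and the 1 on the right is Rgs4.

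The genes most like each opioid gene over the 9 samples were found by Pearson's r on log2(TPM + 1) among 13952 named genes. For Penk they were LOC691995 (r = 0.97), Fn3k (0.94) and Impad1 (0.93), and LOC691995 was also first on median-centred values (0.98). For Pnoc they were Tti1, Nop16 and Alg8, with r from 0.90 to 0.93, and for Pdyn they were Ift27, Ncbp2 and Zbtb3, with r from 0.90 to 0.93. Oprl1 was followed most closely by Ncdn (0.99), Gprasp2 (0.98) and Supt7l (0.98), and Oprk1 by Fuca2 (0.995), Tial1 (0.99) and Mtdh (0.98). The median gene had an r of 0.44 with Oprl1 and 0.54 with Oprk1, so these 2 receptors shared part of their pattern with the table at large. On median-centred values the median gene was at 0.02 for Oprl1, whose nearest gene was still Ncdn (0.99). It was at -0.04 for Oprk1, whose nearest genes were then Trpc4ap, Mtdh and AABR07052897.3. Oprk1 and Oprl1 had an r of 0.73 with each other, and 0.53 on median-centred values. The genes nearest to Oprm1 were loci such as AABR07027722.1, which was at 439.91 TPM in PLM replicate 2 and at 0 in all other samples, so this likeness rests on that library. With the best of 13952 genes over 9 samples a high r can come about without any relation, and the values are descriptions only.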

How the data were processed

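Reads from 9 spinal cord libraries were trimmed with fastp (version 0.19.5 in the submitters' processing notes), mapped with HISAT2 and assembled with StringTie by the authors, who deposited 1 table of TPM values. The notes name a human genome build for these rat samples while the identifiers are rat Ensembl ones, so no coordinates of that build were used. The annotation is not given in the sources used here. All 9 columns were matched to samples by name, and the replicates are labelled as separate biological ones.

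Groups were compared in pairs with limma 3.58.1 in R 4.3.3 (variance trend, no covariate) on log2(TPM + 1) for loci averaging 1 TPM or more over the samples compared, and p-values were adjusted over all of them. Genes below the filter took their value from a fit without it. The study used DESeq2, which needs counts, so it was not used here. Samples were also centred on their median. All 7 names matched RefSeq, which was used for overlapping genes only. The procedure was tested on simulated data. Figures were drawn with matplotlib 3.10.9.

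The members, the lists and the comparisons were chosen with earlier results of these data known. All 7 genes were named. In each list and comparison the 2 called genes with the smallest p were named, apart from 1 effector gene that is not reported here, and the 3 genes most like each opioid gene with a mean of at least 1 TPM. Marker lists are given by counts and sums where they bear on a result. Npff, Npffr1, Npffr2, Pomc and Rgs4 were named after their values were seen. The alternatives were other scalings, pseudocounts, filters, variance models and sample sets, a replicate block, and leaving out each sample. Those for the count of pathway genes were added after seeing the data.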

Additional observations from a re-analysis of the deposited data

How the results depend on the processing

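The count of opioid genes called stayed at 0 in all 4 tests under every alternative run. Over 330 alternative values for single genes the smallest adjusted p was 0.0780 (Oprl1 in PLM versus SNI without SNI replicate 2, limma), and 15 had an unadjusted p under 0.05. The filter of 1 TPM in every sample gave no value for Oprd1 and Oprk1. The depth behind each TPM value is unknown, which weighs most on Oprk1 and Oprd1, near or below 1 TPM, and 3 rats per group leave wide intervals.

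The sign changed in 43 of the 330 values, none of a called gene, and the cause was not tested. In SNI versus JA the log2 fold change of Penk became -0.066 median-centred, -0.035 without mitochondrial genes, -0.074 with quantile normalization and -0.33 relative to neuron markers. Relative to neuron markers Oprm1 was at -0.19, Oprd1 at -0.23, Oprk1 at -0.14 and Oprl1 at -0.070 in the same comparison, and in PLM versus JA Penk was at -0.061 and Oprd1 at -0.17. In PLM versus SNI Pdyn became 0.24 median-centred, 0.13 without mitochondrial genes, 0.24 with quantile normalization and 0.17 relative to neuron markers. Pnoc became 0.20, 0.092, 0.17 and 0.13 in the same order, and Oprd1 0.13 median-centred and 0.060 relative to neuron markers. In PLM versus JA Pdyn became 0.050 median-centred and 0.052 with quantile normalization, Pnoc 0.011 median-centred, and Oprl1 0.11 median-centred, 0.041 without mitochondrial genes and 0.12 with quantile normalization.

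Leaving out 1 sample at a time changed the sign in 17 values. In SNI versus JA the ranges were -0.13 to 0.15 for Penk, -0.21 to 0.090 for Pdyn, -0.15 to 0.0030 for Pnoc and -0.055 to 0.38 for Oprd1. In PLM versus SNI they were -0.16 to 0.14 for Pdyn, -0.13 to 0.038 for Pnoc, -0.0022 to 1.12 for Oprm1 and -0.39 to 0.085 for Oprd1. In PLM versus JA they were -0.033 to 0.24 for Penk, -0.23 to 0.26 for Oprd1 and -0.11 to 0.15 for Oprl1.

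The 13 pathway genes called lower in PLM than in SNI became 0 median-centred and 0 relative to neuron markers, 2 without mitochondrial genes, 1 with quantile normalization, 6 with no filter, 23 with 1 TPM in every sample, 4 with all 9 samples in the fit and 7 with no variance trend. Leaving out 1 sample gave counts of 2 to 11, not always of the same genes. The loci called over the whole table moved too, from 2148 to 126 median-centred, 0 relative to neuron markers, 283 without mitochondrial genes, 155 with quantile normalization, 1258 with no filter, 2639 with 1 TPM in every sample, 471 with all 9 samples in the fit, 1454 with no variance trend and 152 with the replicate block. Samples of different groups were correlated on median-centred values after the mean of each group was removed. Same-numbered samples had correlations from -0.046 to 0.126, and differently numbered ones from -0.192 to 0.136. With so few rats per group, these values cannot decide whether replicate numbers paired the samples. With the replicate number as a block, 0 opioid genes were called, the log2 fold change of Oprk1 in PLM versus SNI was -0.48 (adjusted p = 0.227, limma), and 1 pathway gene was called lower.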
